A study of Mus musculus with 6 samples.

Results

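The G1 cyclins, their kinases and the CDK inhibitors were examined as 10 genes of the 18182 in the files, chosen by their symbols. They were the D cyclins Ccnd1, Ccnd2 and Ccnd3, the kinases Cdk4 and Cdk6, and the inhibitors Cdkn1a, Cdkn1b, Cdkn2a, Cdkn2b and Cdkn2c. The sequenced cells were Lewis lung carcinoma cells with red fluorescent protein (LLC-RFP), a mouse lung cancer line. They were injected under the skin of wild type C57BL/6 mice, either alone (LLC alone) or with bone marrow-derived mesenchymal stem cells (LLC with BMSCs), and sorted by their fluorescence from the primary tumours. Each group had 3 libraries, compared to ask how BMSCs change the cancer cells. The BMSCs were purchased, and LLC is a single line. The labels give no age, while the paper names 6-week-old female mice for its allograft tumours, in a section on luciferase-marked LLC cells. The labels also do not say whether a library came from 1 mouse or several. The p-values thus measure the spread between these libraries, which may be technical.

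D cyclins bind CDK4 or CDK6 in G1 phase, and the active kinase phosphorylates the retinoblastoma protein RB, which then releases E2F transcription factors and lets S phase genes be transcribed. The INK4 inhibitors (products of Cdkn2a, Cdkn2b and Cdkn2c) bind CDK4 and CDK6 and keep the D cyclins off them. The CIP/KIP inhibitors p21 (Cdkn1a) and p27 (Cdkn1b) bind cyclin-kinase complexes and block the cyclin E and cyclin A kinases. Loss of INK4 inhibitors is common in cancer.

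Libraries held 33476347 to 46189113 estimated fragment counts on genes. LLC alone replicate 3 stood apart by transcript length. Its median deviation on the log2 CPM scale was 0.31 in the shortest of 5 length classes of tested genes and -0.37 in the longest. The other 5 libraries had values between -0.19 and 0.18. The groups also differed in this trend. In the shortest class the LLC alone libraries had 0.062, 0.037 and 0.313, and those with BMSCs -0.189, -0.091 and -0.112 (replicates 1 to 3). In the longest class the sign was reversed in every library. Of 6 epithelial markers, 1 (Krt8, 95.3 ± 5.98 FPKM in LLC alone, SD, n = 3) exceeded 1 FPKM in LLC alone, while Epcam, Cdh1, Krt7, Krt18 and Krt19 were below 0.1 FPKM there. The fluorescent protein that marked the cells was not analysed here. In a bulk library, fewer cells with a transcript and less of it per cell cannot be told apart.

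In the libraries of sorted cells from tumours with BMSCs, Cdkn1a and Cdkn2c rose, while Cdk4, Cdkn1b and Ccnd1 fell. Among the 8 genes counted in both groups, Cdkn1a changed most, at 2.56-fold, and Cdk4 and Cdkn1b had the largest falls, each by 0.57 on the log2 scale. Cdkn2a and Cdkn2b were not detected in LLC alone, and Cdkn2a was at least 10.7-fold higher with BMSCs. Of the 10 genes, 9 passed edgeR's filter on low counts, and Cdkn2a passed it only through the libraries with BMSCs. Of the 8 genes, 2 were called higher and 3 lower at an adjusted p under 0.05 (edgeR's quasi-likelihood test, Benjamini-Hochberg over 13353 genes). These 5 are 62.5% of the 8, and 62.9% of all tested genes were called, 31.5% higher and 31.3% lower, so that the share called was close to the background. The groups did not overlap in FPKM for 5 of the 8 genes, against 70.6% of all tested genes. Cdkn1a alone passed the threshold with a log2 fold change of at least 1, as did 8.65% of tested genes, and none of the 8 was called with a log2 fold change of -1 or less (7.17% of tested genes; 0 with DESeq2 and at an unadjusted p under 0.05).

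**Figure D1:**
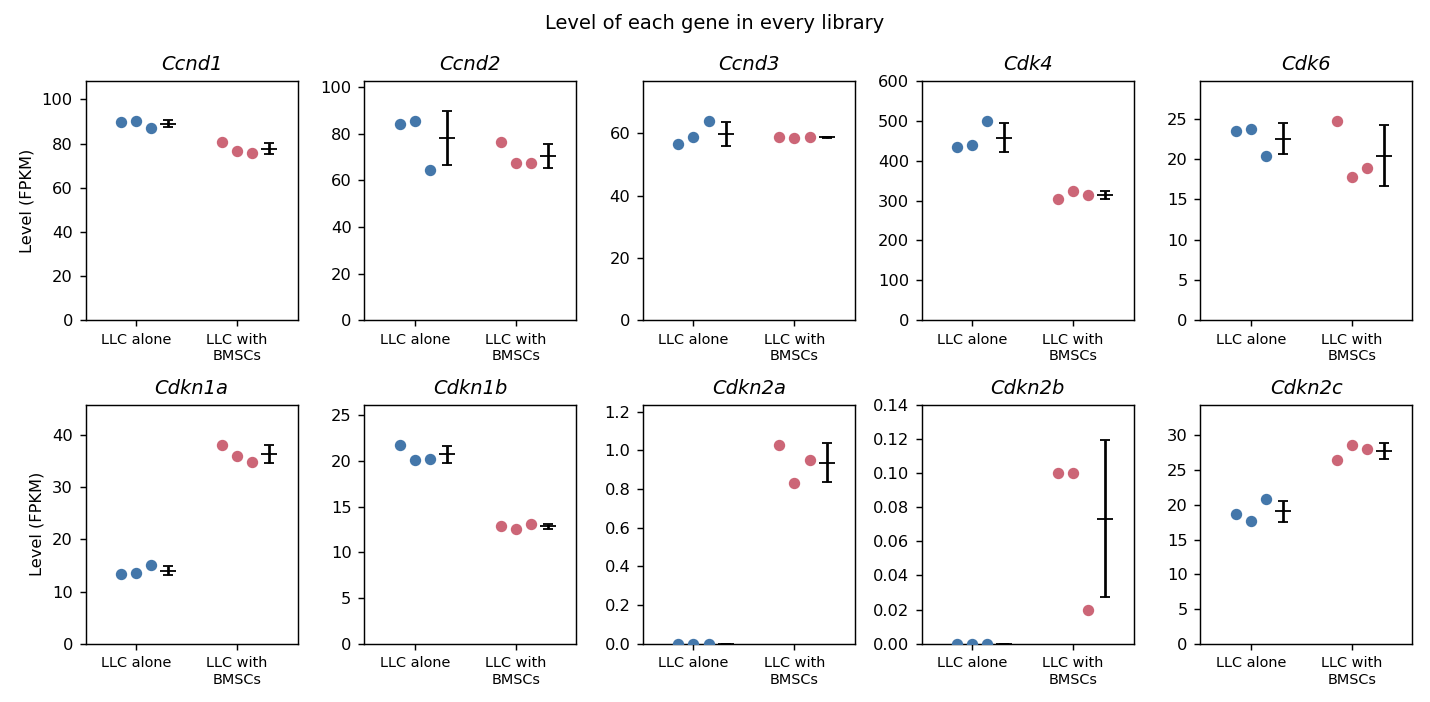
Level in FPKM (vertical axes, from 0, each on its own scale) of each gene in the 3 LLC alone libraries (blue) and the 3 LLC with BMSCs libraries (red), in the order of the replicate numbers, with the group mean and SD as black bars. The Cdkn1a points lie at 13.4 to 15.01 and 34.9 to 38.2 FPKM, and Cdkn2a and Cdkn2b lie at 0 in LLC alone.

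Levels are compared between genes in FPKM, which is scaled by transcript length. Cdk4 was the highest of the 10 genes in both groups, followed by Ccnd1, Ccnd2 and Ccnd3. In LLC alone the next levels were those of Cdk6, Cdkn1b and Cdkn2c, with means of 22.5, 20.7 and 19.0 FPKM and neighbouring ranges that overlapped, and then Cdkn1a at 14.01 FPKM. In LLC with BMSCs the order below the D cyclins was Cdkn1a (36.4), Cdkn2c (27.7), Cdk6 (20.4) and Cdkn1b (12.8 FPKM), with no overlap between neighbours. Cdkn1a thus stood below Cdk6, Cdkn1b and Cdkn2c in LLC alone and above them with BMSCs. Ccnd1 and Ccnd2 overlapped in LLC with BMSCs but not in LLC alone.

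Ccnd1 encodes cyclin D1, the D cyclin most often amplified in tumours. Its level was 89.8, 90.3 and 87.1 FPKM in the LLC alone libraries and 80.8, 76.6 and 75.8 FPKM with BMSCs (replicates 1 to 3 in each case here and below). Each library with BMSCs was lower than each LLC alone library. The log2 fold change was -0.22 (standard error, SE, 0.056; edgeR adjusted p = 0.0102), a small fall. Without LLC with BMSCs replicate 2 or 3 it was -0.20 in both cases and no longer past the threshold (adjusted p = 0.0558 and 0.0559 with edgeR).

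Ccnd2 and Ccnd3 encode cyclins D2 and D3, which bind the same kinases. Ccnd2 was at 84.2, 85.6 and 64.7 FPKM in the LLC alone libraries and 76.4, 67.3 and 67.7 FPKM with BMSCs. The groups overlapped, and LLC alone replicate 3 was the lowest of the 6 libraries. The log2 fold change was -0.17, with a 95% interval of -0.39 to 0.05 (edgeR adjusted p = 0.222). Without LLC alone replicate 3 it was -0.28 and was called (adjusted p = 0.00337 with edgeR). Ccnd3 lay at 56.7, 58.7 and 64.0 FPKM in the LLC alone libraries and at 58.8, 58.4 and 58.9 FPKM with BMSCs. Its log2 fold change was -0.05 (95% interval -0.17 to 0.08), and the sign turned without LLC alone replicate 3 (0.011). Ccnd3 had fractional estimated counts in all 6 libraries, as a division of reads among genes gives, and its exons overlap those of Bysl on the opposite strand.

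Summed over the D cyclins, the level was 227 ± 9.90 FPKM in the LLC alone libraries and 207 ± 7.94 FPKM with BMSCs (SD, n = 3 each; exact permutation test, two-sided, p = 0.2). Cyclin D1 made up 38.9, 38.5 and 40.4% of that sum in LLC alone and 37.4, 37.9 and 37.5% in LLC with BMSCs. The shares did not overlap, and their difference of -1.69 percentage points gave p = 0.1 in the exact permutation test (two-sided), the smallest that 3 libraries against 3 allow. In normalized counts, which are not scaled by length, the difference was -1.26 percentage points (p = 0.5, exact permutation test, two-sided).

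Cdk4 encodes the main G1 kinase and was the most abundant of the 10 transcripts. It was at 435, 440 and 501 FPKM in the LLC alone libraries and at 304, 323 and 314 FPKM with BMSCs. All libraries with BMSCs lay well below those of LLC alone, whose replicate 3 was the highest. The means of 458 ± 36.6 and 314 ± 9.60 FPKM (SD, n = 3 each) gave a log2 fold change of -0.57 (SE 0.072, edgeR adjusted p = 0.000318). Its absolute log2 fold change exceeded that of 66.2% of tested genes. The transcript is short, at 1365 bases, and the log2 fold change was -0.35 with each library's trend over transcript length removed (adjusted p = 2.4e-05 with edgeR). Its exons overlap those of Tspan31 on the opposite strand, and the strand setting of the counting is not given in the sources used here. The estimated counts of Cdk4 were whole in each library. Ccnd1, Ccnd2, Cdk6 and Cdkn1a also overlap other genes on the opposite strand.

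The Cdk4 sequence upstream of the start is shown because it holds several E-boxes, the element bound by MYC and other factors. The E-box CACGTG occurs at 3 places in these 215 bases. At least 1 match lies in 4.84% of all 32851 windows of the same length, and windows with several matches were not counted. The Cdk6 window holds 1 E-box. The GC box GGGCGG or its reverse complement lies in 27.7% of all windows. Both motifs are in capitals. The window ends 36 bases before the start in RefSeq's promoter table, on the plus strand of GRCm38.p6 at chr10:127063285-127063499.
Cdk4: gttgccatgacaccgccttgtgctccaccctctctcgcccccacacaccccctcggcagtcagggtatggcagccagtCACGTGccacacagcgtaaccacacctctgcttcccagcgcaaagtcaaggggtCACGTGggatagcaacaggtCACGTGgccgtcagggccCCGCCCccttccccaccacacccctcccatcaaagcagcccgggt

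Cdk6 encodes the second D cyclin kinase. Its level was 23.5, 23.8 and 20.3 FPKM in the LLC alone libraries and 24.7, 17.7 and 18.8 FPKM with BMSCs. The groups overlapped, as LLC with BMSCs replicate 1 was the highest of all. The log2 fold change was -0.16 (95% interval -0.42 to 0.10, adjusted p = 0.312 with edgeR). Its main transcript is long, at 11534 bases, and with the trend over length removed the log2 fold change was -0.57 (adjusted p = 0.00423 with edgeR). It was -0.33 and also called without LLC with BMSCs replicate 1 (adjusted p = 0.0199 with edgeR). It shrank to -0.07 without LLC with BMSCs replicate 2, to -0.10 without replicate 3 and to -0.05 with the closest pairs of libraries summed, with no call in these settings.

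Cdk4 supplied 94.9, 94.9 and 96.1% of the summed Cdk4 and Cdk6 level in LLC alone and 92.5, 94.8 and 94.3% in LLC with BMSCs. These shares did not overlap (difference -1.41 percentage points, exact permutation test, two-sided, p = 0.1), but LLC with BMSCs replicate 2 lay close to LLC alone. The difference was -0.71 percentage points without LLC with BMSCs replicate 1. In normalized counts the difference was -6.03 percentage points. The summed kinase level was 481 ± 34.7 FPKM in the LLC alone libraries and 334 ± 6.23 FPKM with BMSCs (mean ± SD, n = 3 each).

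**Figure D2:**
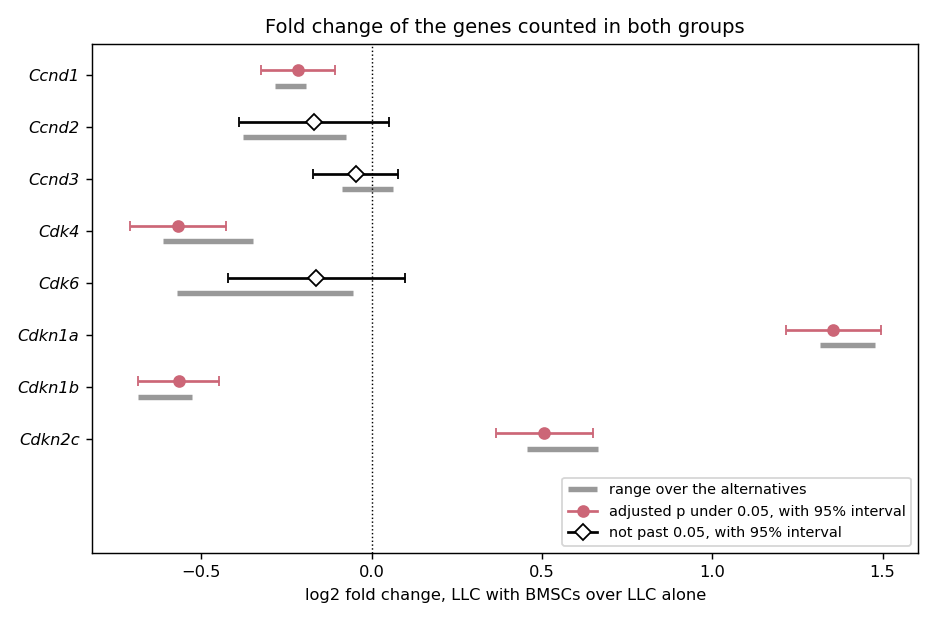
Log2 fold change of LLC with BMSCs over LLC alone (horizontal axis) for the 8 genes counted in both groups, with 95% intervals, filled red where the adjusted p of edgeR's test was under 0.05 and open where it was not. Grey bars span the values over 16 other settings, and those of Ccnd3 cross 0.

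Cdkn1a encodes p21, an inhibitor that p53 and other factors induce. It was at 13.4, 13.6 and 15.01 FPKM in the LLC alone libraries and at 38.2, 36.0 and 34.9 FPKM with BMSCs. The groups lay far apart relative to their spread (14.01 ± 0.871 and 36.4 ± 1.66 FPKM, SD, n = 3 each). Its log2 fold change was 1.36 (SE 0.071, edgeR adjusted p = 3.95e-06), larger in size than that of 89.3% of tested genes. Over the 16 other settings it lay between 1.32 and 1.48 and was called in each. Nearly all of the gene was transcript NM_007669, at 100% of the counts in 5 libraries and 99.2% in LLC alone replicate 3, where NM_001111099, from an upstream start, took 10.3 estimated counts.

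The window upstream of the NM_007669 start is given because nearly all counts fell to this transcript. It held 15 CpG dinucleotides, where the median over all windows is 5, and 2 GC boxes (capitals). It lies on the plus strand of GRCm38.p6 at chr17:29093519-29093733. No match to the STAT motif TTCNNNGAA, found in 6.14% of all windows, occurred in these bases or in the window of the NM_001111099 start. Most windows lack a match, so that its absence decides nothing about STAT control, and bases outside the windows were not searched.
Cdkn1a: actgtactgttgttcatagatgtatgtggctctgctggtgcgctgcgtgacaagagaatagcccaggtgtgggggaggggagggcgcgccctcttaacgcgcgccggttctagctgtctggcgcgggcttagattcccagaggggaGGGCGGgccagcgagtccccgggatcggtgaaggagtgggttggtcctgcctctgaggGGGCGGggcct

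Cdkn1b encodes p27, the inhibitor that accumulates in resting cells and is degraded as cells enter S phase. Its level was 21.8, 20.1 and 20.2 FPKM in the LLC alone libraries and 12.9, 12.5 and 13.1 FPKM with BMSCs. The log2 fold change was -0.57 (SE 0.060, edgeR adjusted p = 0.000129), opposite to that of Cdkn1a and of nearly the same size as that of Cdk4. It lay between -0.69 and -0.53 over the 16 other settings. The 2 transcripts listed did not move alike. The RefSeq transcript NM_009875 went from 13.7 ± 0.786 to 6.59 ± 0.60 FPKM, and a longer one assembled by the authors' pipeline (4652 bases) was at 7.06 ± 0.717 and 6.23 ± 0.463 FPKM (SD, n = 3 each). NM_009875 took 46.9 to 53.3% of the gene's estimated counts in LLC alone and 31.8 to 39.2% in LLC with BMSCs. The division of reads between transcripts is an estimate and was not tested.

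Cdkn2c encodes p18, an INK4 inhibitor. It was at 18.6, 17.7 and 20.8 FPKM in the LLC alone libraries and at 26.5, 28.7 and 28.01 FPKM with BMSCs. All libraries with BMSCs lay above those of LLC alone, with a log2 fold change of 0.51 (SE 0.073, edgeR adjusted p = 0.000589). Both of its RefSeq transcripts were higher with BMSCs, NM_001301368 with 11.6 ± 0.893 and 16.5 ± 0.561 FPKM and NM_007671 with 7.42 ± 0.679 and 11.2 ± 0.762 FPKM (SD, n = 3 each). NM_007671 kept a like share of the counts, 25.1 to 25.7% in LLC alone and 25.4 to 27.7% in LLC with BMSCs.

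Cdkn2a and Cdkn2b lie next to each other on chromosome 4. Cdkn2a encodes p16INK4a and, from another first exon and in another reading frame, p19ARF, which stabilizes p53. It had 0 counts in each of the 3 LLC alone libraries and 39, 31 and 35 counts (1.03, 0.83 and 0.95 FPKM) in LLC with BMSCs. Set against a floor of 3 counts per library, it was at least 10.7-fold higher with BMSCs, with 33.9 ± 3.81 normalized counts (SD, n = 3). This floor covers counting error only. Cdkn2b, which encodes p15INK4b, had 0 counts in each LLC alone library and 6, 6 and 1 in LLC with BMSCs, too few to be tested.
Of their neighbours, named after their values were seen, Mtap was at 139 ± 4.59 FPKM in the LLC alone libraries and 115 ± 1.47 FPKM with BMSCs (mean ± SD, n = 3 each). Mtap encodes an enzyme of methionine salvage and was thus detected in the libraries in which Cdkn2a was not. Dmrta1, on the other side, had 3, 1 and 1 counts in LLC alone.

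The Cdkn2a counts in LLC with BMSCs fell mostly to NM_009877, the p19ARF transcript, with 34.5, 26.4 and 29.1 estimated counts. NM_001040654, the p16INK4a transcript, took 4.52, 4.57 and 5.95. The 2 transcripts share their later exons, so that only reads reaching the first exon part them. The windows upstream of both starts are given because each transcript has its own start. A link between their sequence and the transcript counts was not tested. That of p19ARF (its start lies 34 bases from the NM_009877 start; minus strand, GRCm38.p6, chr4:89294655-89294869) held 35 CpG and an E2F motif TTTCCCGC (in 0.743% of all windows) besides a GC box. That of p16INK4a (minus strand, chr4:89282228-89282442) held 7 CpG and none of the motifs searched. Motif matches are in capitals.
Cdkn2a p19ARF start: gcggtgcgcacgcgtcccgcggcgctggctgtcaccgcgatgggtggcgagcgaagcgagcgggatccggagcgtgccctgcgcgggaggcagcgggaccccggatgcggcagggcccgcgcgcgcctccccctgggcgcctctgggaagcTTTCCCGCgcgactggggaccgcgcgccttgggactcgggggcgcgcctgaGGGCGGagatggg
Cdkn2a p16INK4a start: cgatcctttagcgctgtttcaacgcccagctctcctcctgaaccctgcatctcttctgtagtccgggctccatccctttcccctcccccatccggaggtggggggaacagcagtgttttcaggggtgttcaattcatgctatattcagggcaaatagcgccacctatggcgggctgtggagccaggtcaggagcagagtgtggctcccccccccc

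Several markers of other cell types moved with Cdkn2a and Cdkn1a. Of 14 BMSC markers, 12 were tested. Of these, Col1a1, Dcn and Lum had under 10 counts in each LLC alone library and passed the filter through the libraries with BMSCs. The other 9 were all called higher. For this and the following marker lists, the background is 31.5% of all tested genes called higher and 31.3% called lower. The summed level of the list was 378 to 440 CPM in LLC alone and 862 to 909 CPM in LLC with BMSCs. Col3a1 was the most abundant, with means of 228 and 546 CPM, while Dcn went from 0.11 ± 0.0173 to 6.31 ± 0.223 FPKM (SD, n = 3 each). Thy1 and Cxcl12 had no counts in LLC alone and stayed below 0.1 FPKM with BMSCs. Of 11 macrophage markers, 8 were tested, 4 of them with under 10 counts in each LLC alone library, and of the other 4, 2 were higher and 1 lower. The list summed to 24.1 to 29.1 CPM in LLC alone and 35.9 to 38.4 CPM with BMSCs. Cd14, the most abundant of the list, was at 9.49 ± 0.970 and 10.09 ± 0.866 FPKM with no call. Cd68 fell from 5.55 ± 0.509 to 3.03 ± 0.356 FPKM (SD, n = 3 each). Adgre1, C1qa and C1qc were at 0 in LLC alone and at 0.477, 0.0533 and 0.0333 FPKM with BMSCs, and C1qa and C1qc were not tested. Neutrophil markers summed to 0.479 to 0.78 and 21.2 to 23.8 CPM, and 6 of the 7 tested passed the filter only through the libraries with BMSCs, where they are high, so that their direction was fixed. Lymphocyte markers, none of 10 tested, and endothelial markers, 2 of 7 tested and neither called, summed to at most 1.75 CPM. Of 6 erythroid markers, 5 were tested, 2 of them at the floor of 3 counts in LLC alone, and of the other 3, 1 was higher and 1 lower (sums of 8.66 to 9.04 and 11.1 to 12.0 CPM). The part of these cells in the Cdkn2a and Cdkn1a counts was not tested.

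In single libraries, the 5 inhibitors summed to 53.8, 51.4 and 56.0 FPKM in the LLC alone libraries and to 78.7, 78.1 and 77.0 FPKM with BMSCs. Their makeup differed between the groups. Cdkn1a supplied 26.1 ± 0.962% of the sum in LLC alone and 46.7 ± 1.66% in LLC with BMSCs, and Cdkn1b 38.6 ± 2.22% and 16.5 ± 0.484% (SD, n = 3 each). Cdkn2c supplied 35.4 ± 1.47% and 35.6 ± 1.68%. Relative to the summed Cdk4 and Cdk6 level, the inhibitors stood at 0.118, 0.111 and 0.108 in LLC alone and at 0.239, 0.229 and 0.232 in LLC with BMSCs. The log2 ratio was higher by 1.06 with BMSCs (exact permutation test, two-sided, with the smallest possible p of 0.1), and by 0.79 in normalized counts. These are ratios of transcripts and not of proteins. The sum holds Cdkn1a and Cdkn1b, whose products block the cyclin E and cyclin A kinases, and leaves out the INK4 gene Cdkn2d.

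**Figure D3:**
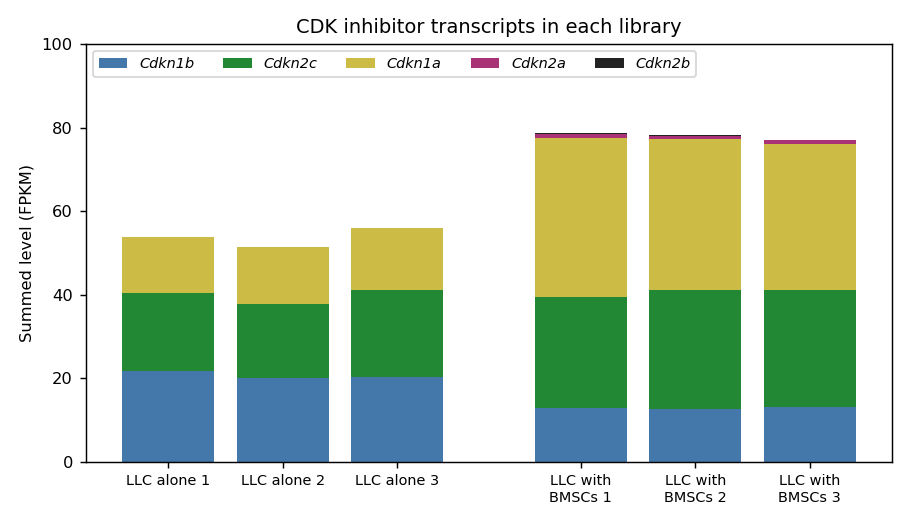
Summed level in FPKM of the 5 inhibitors (vertical axis) in each of the 6 libraries, with one colour for each gene. The bars reach 51.4 to 56.0 FPKM in the LLC alone libraries and 77.0 to 78.7 FPKM with BMSCs, and the Cdkn1a part grows while the Cdkn1b part shrinks.

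Of 11 other cyclins, kinases and inhibitors of G1, 10 were tested, 3 were higher and 4 lower. These shares of 30.0% and 40.0% compare with 31.5% and 31.3% of all tested genes. The median log2 fold change was -0.13, against 0.01 over all tested genes. Cyclin E2 (Ccne2), a partner of CDK2 at the start of S phase, fell from 24.5 ± 1.78 to 17.4 ± 0.262 FPKM (mean ± SD, n = 3 each), a log2 change of -0.51 (adjusted p = 0.000367 with edgeR). Cyclin E1 (Ccne1) fell by 0.25 on the log2 scale, and Cdk2 was at 31.6 ± 1.24 and 32.6 ± 0.297 FPKM with no call. Mnat1, a subunit of the kinase that activates CDKs, fell by 0.50 on the log2 scale. Cyclins G1 and G2 (Ccng1 and Ccng2), which do not act as G1 cyclins in spite of their name, rose by 0.52 and 0.46. Cdkn2d, the INK4 gene outside the set, rose from 16.7 ± 2.71 to 22.5 ± 1.33 FPKM (mean ± SD, n = 3 each), a log2 change of 0.40 (adjusted p = 0.0169 with edgeR). Cdkn1c, which encodes p57, was listed at 0 in LLC alone and at a mean of 0.01 FPKM with BMSCs.

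Of 17 genes of the RB family, the E2F factors and their partners, all were tested, 7 were higher and 4 lower (median log2 fold change 0.09), and the 64.7% called is close to the 62.9% over all tested genes. Rb1 rose from 2.97 ± 0.373 to 3.95 ± 0.146 FPKM (mean ± SD, n = 3 each), a log2 change of 0.39. The largest rises were those of E2f8 and E2f7, atypical E2F factors that repress, at 0.74 and 0.62. E2f1, an activator, fell by 0.26 on the log2 scale, from 31.9 ± 0.999 to 26.9 ± 1.74 FPKM (SD, n = 3 each). The largest falls were in Lin37, a subunit of the repressive DREAM complex, and in E2f6, at -0.51 and -0.41. None of these changes reached 1 on the log2 scale.

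Downstream of RB, G1/S and mitotic genes were read apart. Of 26 E2F target genes of G1/S, all tested, 12 were lower and 2 higher (median log2 fold change -0.11), or 46.2% and 7.69% against 31.3% and 31.5% of all tested genes. Cdt1, which loads the replicative helicase, fell most, from 92.8 ± 1.84 to 47.6 ± 3.85 FPKM (mean ± SD, n = 3 each), a log2 change of -0.98. The 6 helicase subunits Mcm2 to Mcm7, picked out after their values were seen, were all lower, by log2 fold changes between -0.81 and -0.27. Mybl2, a factor that acts with E2F and DREAM subunits, was the larger of the 2 rises, at 0.72. By contrast, of 16 mitotic genes, all tested, 10 were higher and 0 lower with edgeR (0 also at an unadjusted p under 0.05 and with DESeq2), with a median of 0.37. The share called higher was 62.5%, against 31.5% of all tested genes. Aurkb, a mitotic kinase, rose from 31.0 ± 1.03 to 69.7 ± 3.17 FPKM (mean ± SD, n = 3 each), a log2 change of 1.15. Mki67, the Ki-67 proliferation antigen, rose from 34.7 ± 10.03 to 77.5 ± 8.03 FPKM (mean ± SD, n = 3 each), a log2 change of 1.14, with a wider spread.

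Of 18 ubiquitin ligase subunits and related genes that turn over the G1 regulators, all tested, 4 were higher and 4 lower. The 44.4% called lay below the 62.9% of all tested genes. Skp2, which marks p27 for degradation, fell by 0.28 on the log2 scale (adjusted p = 0.00464 with edgeR), from 23.7 ± 1.31 to 19.8 ± 0.136 FPKM (SD, n = 3 each). Fbxw7, which marks cyclin E, had the largest rise at 0.40, and Rbx1, the RING subunit of these ligases, the largest fall at -0.35. The 8 calls were 5 without LLC alone replicate 2 and 5 without LLC with BMSCs replicate 2.

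**Figure D4:**
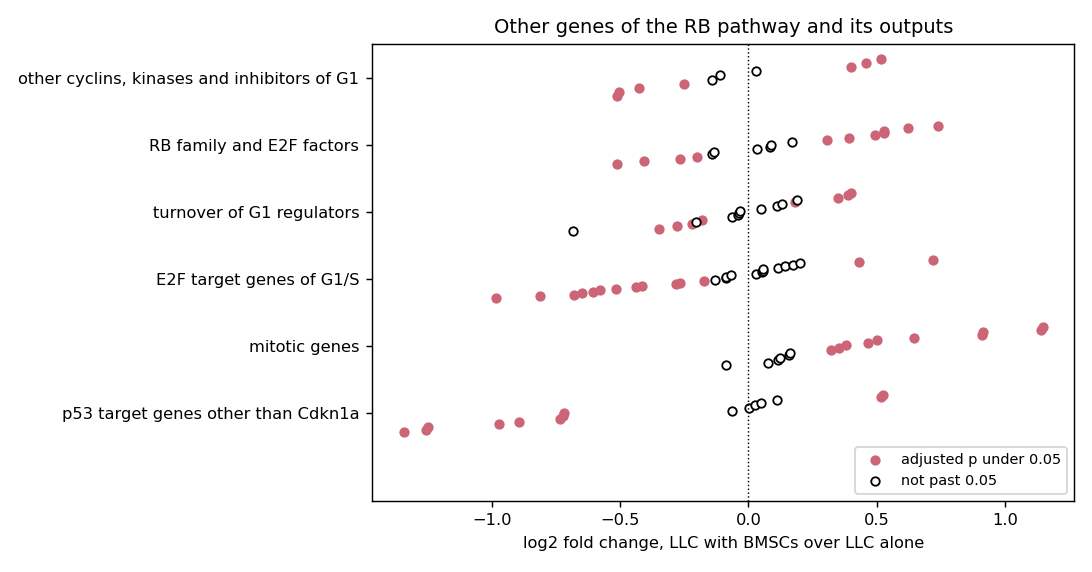
Log2 fold change of LLC with BMSCs over LLC alone (horizontal axis) for each tested gene of 6 lists (rows), filled red where the adjusted p of edgeR's test was under 0.05; genes at or under 3 counts in each library of a group are not drawn. The G1/S row reaches -0.98 (Cdt1) and the mitotic row reaches 1.15 (Aurkb).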

How the data were processed

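RNA of sorted LLC cells was sequenced in 6 libraries, grouped by their labels into LLC alone (3) and LLC with BMSCs (3). Per the paper, poly-A mRNA libraries were read as paired ends on the BGISEQ-500, while the labels name Illumina protocols. The submitters' processing notes name HISAT, StringTie, Cufflinks, GATK and the build mm8, with no roles; the quantification program and its strand setting are not given in the sources used here. The authors deposited estimated counts, FPKM and lengths per gene and transcript, and 21.9 to 23.2% of listed genes had counts that were not whole. Genes absent from a library's file were taken as 0. A table of the whole series repeats the FPKM and was not used.

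Estimated counts were rounded and tested with edgeR 4.0.16 in R 4.3.3 (TMM, filterByExpr, quasi-likelihood test between the groups, with LLC alone as the base, Benjamini-Hochberg over 13353 tested genes, threshold 0.05). No test for counts is named in the paper. The standard error (SE) comes from the log2 fold change and its F value (their quotient after taking the root of F). The 95% intervals use this SE with a normal quantile. They leave out the degrees of freedom of the test, so that they are narrower than intervals that count them. CPM was scaled to the mean effective library size for normalized counts. Shares and ratios were computed per library from FPKM and compared with the exact permutation test, whose smallest p is 0.1. The fits were also run on simulated counts with a common dispersion and no trend over transcript length. That run checks the code only and not how the fits behave on these libraries. Alternatives used DESeq2 1.42.0, limma 3.58.1 on log2(FPKM + 1) and log2(FPKM + 0.1), other scalings and filters, a replicate block, a length trend, summed pairs, a fold threshold and each library left out.

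The genes and lists were chosen with earlier results of these data known. Besides the 10 genes, the text names from each pathway list the largest rise and fall past the threshold with at least 50 normalized counts (2 each for the other G1 genes and the RB and E2F list), and Ccne1, Ccne2, Cdk2, Rb1, E2f1, Cdkn1c, Cdkn2d, Skp2 and Mki67. Sequences are from RefSeq (GRCm38.p6), matched by gene ID for 8 of the 10 genes. Windows run from 250 to 36 bases before the start; motifs were sought on both strands, namely the E2F motifs TTTCCCGC (in 0.743% of all windows) and TTTGGCGC (0.353%), the GC box GGGCGG (27.7%), the STAT motif TTCNNNGAA (6.14%), the E-box CACGTG (4.84%) and the TATA box TATAAA (9.75%), and no match overlaps another in the windows printed.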

Additional observations from a re-analysis of the deposited data

Results flagged for a closer look

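Cdkn2b was outside the tested genes, because its counts did not pass the filter, and held 13 estimated counts over the 3 LLC with BMSCs libraries against 0 over the 3 LLC alone libraries. Most of these were in replicates 1 and 2, with 6 each, and replicate 3 had 1. The level in LLC with BMSCs was 0.0733 ± 0.0462 FPKM (SD, n = 3). Both other comparisons that would mark a result here, an outlying library in a group of 4 or more and a difference between 2 contrasts, could not be made in this design.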

How the results depend on the processing

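Cdkn1a, Cdkn2c, Cdk4 and Cdkn1b kept their direction and their call under each of 16 other settings. Ccnd1 kept its direction in 16 and lost its call in 3, Ccnd2 and Cdk6 kept their direction in 16 and gained a call in 2 each, and Ccnd3, not called in any, turned its sign without LLC alone replicate 3 (0.011, in a range of -0.0877 to 0.011 with each library left out) and with the length trend removed (0.0636). With that trend removed, 5 genes of the set were called lower in place of 3. With a log2 fold change of at least 1 added, 2112 genes were called in all, and in the set 1 was higher and 0 lower. That threshold left 0 calls among the other G1 genes, the RB and E2F genes, the turnover genes and the G1/S genes (0 at an unadjusted p under 0.05 and 0 with DESeq2), 2 among the mitotic genes and 5 among the p53 target genes, Plk2 and Pmaip1 included. With each library left out, 7198 to 9275 genes were called in all, 2 to 4 genes of the set were lower, 2 were higher, and 5 to 10 turnover genes were called. Summing the closest pairs (LLC alone replicates 1 and 2, LLC with BMSCs replicates 2 and 3, chi-square 4.74 and 3.0 per gene against 19.0 or more) left 4 turnover genes called. The replicate numbers did not pair the libraries (correlations of deviations 0.076, -0.106 and 0.057), and with the replicate block 8219 genes were called against 8393, with 2 genes of the set higher and 3 lower as without it. The differences in the shares of Ccnd1 and Cdk4 and in the inhibitor ratio kept their sign, at -2.07 to -1.13, -1.88 to -0.71 and 1.03 to 1.10 with each library left out.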

Other observations

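Of 18 target genes of p53 other than Cdkn1a, 17 were tested, and Plk2 and Pmaip1 passed the filter only through the libraries with BMSCs. Of the other 15, 2 were higher (Ccng1 and Gtse1) and 8 lower in LLC with BMSCs (edgeR, adjusted p under 0.05). The 66.7% called compares with 62.9% of all tested genes, 31.5% higher and 31.3% lower. Eda2r had the largest fall, from 7.60 ± 0.827 to 2.96 ± 0.133 FPKM (mean ± SD, n = 3 each), a log2 change of -1.34. Plk2, a kinase of the polo family, was at or under 1 count in each LLC alone library and at 144 ± 6.87 normalized counts with BMSCs (SD, n = 3), at least 45.4-fold higher. Ccng1, which is also in the list of cyclins, rose by 0.52 on the log2 scale, and Gtse1 by 0.53. Bax, Sesn2 and Bbc3 were among the 8 lower genes, with log2 fold changes of -0.72, -1.25 and -1.26. Gtse1, Pmaip1, Bax, Sesn2 and Bbc3 were named after their values were seen.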
